A study of Mus musculus with 6 samples.

Results

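Cilium genes were examined in mouse outer hair cells, the amplifying sensory cells of the organ of Corti, at embryonic day E18.5. The members were all rows of the count files whose symbol names an intraflagellar transport (Ift) or Bardet-Biedl syndrome (Bbs) gene, an Rfx factor or Foxj1, an axonemal dynein chain under its older Dnahc, Dnaic or Dnalc name, a radial spoke (Rsph), tectonic (Tctn), tektin (Tekt), Spag or Ribc gene, Wdpcp, Arl13b, or a kinesin-2 motor. The rule found 69 of the 23337 listed genes and used no measured value. The set was nevertheless chosen with earlier results of these data known. The cells were positive for Insm1-GFP-Cre, an allele that places a green fluorescent protein and Cre recombinase at Insm1, and were sorted by fluorescence. Insm1 encodes a zinc-finger transcription factor of nascent outer hair cells. There were 3 libraries labelled Insm1-Het and 3 labelled Insm1-KO, and no wild-type group is used here. The labels name neither the part of Insm1 that is deleted, nor the strain, nor whether a library is from 1 animal or a pool. The p-values thus measure only how much these samples vary, and that variation may be technical.

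The kinocilium is the single true cilium of a hair cell. It stands at the tall edge of the growing hair bundle, takes part in orienting the bundle, and is lost from cochlear hair cells of the mouse after birth. Intraflagellar transport (IFT) builds it: kinesin-2 carries IFT trains outward, dynein-2 brings them back, and the BBSome, a coat of Bbs proteins, loads membrane proteins. A transition zone gates its base, and motile axonemes add dynein arms, radial spokes, a central pair and tektins. Rfx factors bind a DNA element called the X-box in promoters of ciliary genes, and Foxj1 switches on genes of motile cilia. Rfx1 and Rfx3 together are known to be needed for outer hair cells to survive as they mature.

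The X-box is shown first, since it is the sequence through which Rfx factors act and it was no part of the rule. Promoter windows of 300 bases, from 250 before to 50 after each gene's start, came from RefSeq on build GRCm38.p6 and were listed for 62 of the 69 members. A loose X-box of 14 letters (GT, 2 letters of any kind, CC, 3 of any kind, G, 1 of any kind, then AAC) was searched on both strands. It matched in windows of 9 of the 62 members (14.5%), against 3.54% of 9218 genes tested here and 2.49% of all 27025 genes of the table. Its shorter core GTTGCC, searched on both strands, was in windows of 30 members (48.4%), against 15.5% of the tested genes and 14.1% of all. The patterns overlap, and 6 of the 10 places with a 14-letter match held that core inside it. The mean GC content of the windows was 57.9% for members, 61.1% for tested genes and 53.8% for all. A match describes letters in a window and is not a measured binding site.

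A match lay wholly before the start in 6 of the 10 places, and 4 of these are printed because their genes stand for different parts of the cilium: Ift57 (an IFT-B subunit) at chr16:49699194-49699233 (+ strand), Bbs7 (a BBSome subunit) at chr3:36613484-36613523 (- strand), Tctn2 (a transition zone protein) at chr5:124598674-124598713 (+ strand) and Spag16 (a central pair protein) at chr1:69826854-69826893 (+ strand). They read 5′ to 3′ along the gene, with the 14 matched letters in capitals. For Ift57, Tctn2 and also Bbs1 below, the pattern matched on the opposite strand only, so the capitals are its reverse complement.
Ift57: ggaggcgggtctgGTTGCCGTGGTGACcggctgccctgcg
Bbs7: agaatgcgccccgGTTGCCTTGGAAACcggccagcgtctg
Tctn2: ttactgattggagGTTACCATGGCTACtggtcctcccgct
Spag16: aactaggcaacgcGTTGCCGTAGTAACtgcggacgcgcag
For Bbs1 and Tctn1 only the match itself is given, since it lies after the start: at chr19:4906613-4906626 (- strand) for Bbs1, the most abundant Bbs gene, and at chr5:122264411-122264424 (- strand) for Tctn1, where it is a perfect palindrome.
Bbs1: GTTGCCAAGGCGAC
Tctn1: GTTGCCCGGGCAAC
A match went with no one level of RNA: Bbs1 averaged 44.8 CPM per kb and Ift57 16.6, while Bbs7 averaged 0.677 and Spag16 0.341. The window of Rfx3 held the shorter core and no 14-letter match.

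The libraries held 7705177 to 12427039 counts and 12126 to 13763 detected genes, with the fewest genes in KO replicate 3. Levels are CPM (counts scaled to a common library total), and levels of different genes are compared as CPM per kb of merged exon length. Insm1 itself was at 109, 116 and 69.2 CPM among Het libraries, against 78.7, 60.3 and 18.7 CPM among KO libraries, with overlapping genotypes (log2 fold change -0.90, SE 0.50). Since the labels do not name the deleted part, and counts may come from outside it, this level does not check the labels. The sorted cells carried the hair cell markers of the list used, with all 10 (Myo6, Myo7a, Pou4f3, Gfi1, Atoh1, Lhx3, Otof, Cdh23, Pcdh15 and Espn) counted in every library and a summed level of 9198 to 10389.5 CPM. The genotypes did not overlap for 3 of the 10 (30%, against 11.2% of all genes). Atoh1 was higher in KO, Gfi1 and Lhx3 were lower, and none passed the adjusted threshold. Of the 11 supporting cell markers 8 were counted in every library (1876 to 2921 CPM in sum). Tectb and Prox1 had the highest mean levels of the list. Epyc and Fst had 0 counts in Het replicate 2 and KO replicate 2, and Otoa had 0 in KO replicate 3. Lfng and S100a1 were higher in every KO than in every Het library (20% of the 10 tested, against 5.08% of all genes). Neither passed the adjusted threshold. Whether supporting cells or the hair cells gave these transcripts was not tested. Of the 9 spiral ganglion neuron markers 5 were in every library (849 to 1518 CPM), most of it Nefl and Nefm, while Tubb3 had 0 counts in 3 libraries. Glial markers summed to 136 to 267 CPM with Foxd3 at 0, mesenchyme markers to 225 to 425 CPM with Twist1 at 0, and erythroid markers to 0 to 4.96 CPM. The supporting cell sum and the sum of the 5 inner hair cell markers (780.1 CPM, against 311 to 487 in the other 5 libraries) were both highest in KO replicate 3. The second sum rests on Brip1 there (422 CPM), while Nhlh1 (349 CPM) lay within the range of the other libraries, Slc17a8 was at 0, Tbx2 was highest in KO replicate 2 and Fgf8 in KO replicate 1. For Het the second sum was nearly all Nhlh1 (mean 375 of 378 CPM). Brip1 was at 0.489, 0 and 5.93 CPM among Het libraries, against 76.8, 88.0 and 422 CPM among KO libraries. Tbx2 was at 0.163, 0.0937 and 0.632 CPM for Het, against 4.06, 19.2 and 5.01 CPM for KO. Neither gene passed (adjusted p = 0.415 and 0.918 by edgeR), Nhlh1 overlapped, and Slc17a8 and Fgf8 were not tested. The value for Brip1 was the smallest adjusted p of all genes tested. The 7 outer hair cell markers, which include Insm1 itself, summed to 819, 677 and 691 CPM for Het, against 635, 656 and 695 CPM for KO, with overlap. Singly, 2 of the 7 (28.6%) did not overlap, against 11.2% of all genes. Strip2, listed as Fam40b, was lower in KO (mean 202 CPM, against 282 for Het). Ocm was at 0 CPM in all Het libraries and at 1.60, 2.87 and 3.67 CPM in KO. Neither passed (adjusted p = 0.938 and 0.920 by edgeR). Supporting cells and inner hair cells also bear cilia, and their part in the levels that follow was not tested.

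Of the 69 cilium genes, 52 were counted in all 6 libraries and 58 passed the filter on low counts. Rsph6a, Tekt5, Rfx6 and Rfx8 had 0 counts in every library. All 24 genes of the transport machinery (IFT-B, IFT-A, kinesin-2 and the Bbs genes) passed, and so did all 5 of the transition zone group, but 8 of the 31 axonemal genes did not. Per length, Ift20 was highest (79.8 CPM per kb), followed by Rsph1 (71.6), Foxj1 (69.3) and Kif3a (69.2), above 95.8% of all genes tested. The plot of levels by role shows that the highest member of a role ranged widely. It was at 79.8 CPM per kb in IFT-B, 8.86 in IFT-A, 8.67 in the transition zone group and 5.04 in the chaperonin-like Bbs pair. It was lower still in the outer arm (1.83) and inner arm (1.06) heavy chains. Among the central pair genes with a known length it was 0.341 (Spag16). The dynein heavy chains, the motor subunits of the arms, were low as a class, with a median of 0.408 CPM per kb and a highest mean over the 6 libraries of 1.83 (Dnahc11). With the longest transcript as length the highest was 2.08 (Dnahc9), and the highest value in any library was 9.97, of Dnahc9 in KO replicate 3.

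**Figure D1:**
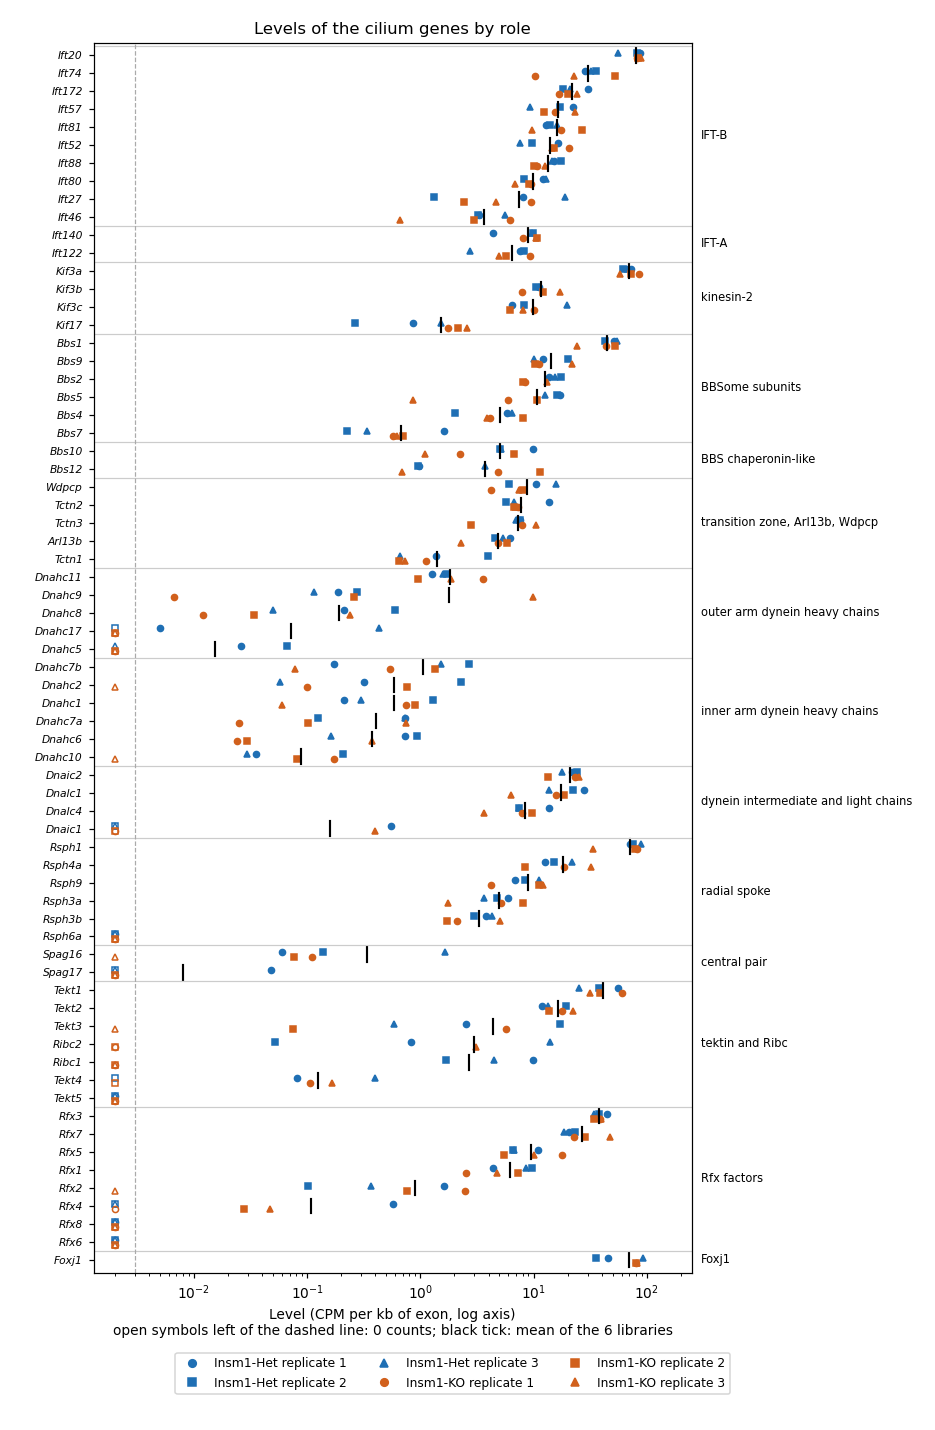
Level of each cilium gene in CPM per kb of exon (log axis), one row per gene and one point per library, grouped by role; Spag6 is left out because its gene model is uncertain. The 11 dynein heavy chains lie to the left of most other genes, and Rsph6a, Tekt5, Rfx6 and Rfx8 had 0 counts in all 6 libraries.

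In the comparison of KO with Het, which asks whether loss of Insm1 changed these genes, 0 of the 58 tested cilium genes passed edgeR's quasi-likelihood test after Benjamini-Hochberg adjustment over all 11714 genes. The background was 0% of all genes by the same rule. DESeq2 called 1 cilium gene, Ribc1, and 26 of all 11714 genes (0.222%), and limma-voom called 0 of either (0%). At an unadjusted p under 0.05 there were 3 cilium genes (5.17% of 58), Rfx7 and Dnahc9 higher and Ribc1 lower in KO, against 5.34% of all genes tested (3.19% higher, 2.15% lower). The genotypes did not overlap for 5 cilium genes (8.62%), Kif17 higher and Ift88, Bbs2, Bbs5 and Ribc1 lower in KO, against 11.2% of all genes (5.08% higher, 6.1% lower). Both shares lie near or below the background, so neither is a result about these genes. Fold changes were below 0 for 35 of the 58 (60.3%), against 49.1% of all genes, and the median log2 fold change was -0.17 against 0.02. In bulk RNA, fewer cells of a type and less RNA per cell cannot be told apart, so a lower value does not say which of these holds. The summed level of all 69 members was 4079.7, 3799.9 and 3909.5 CPM in Het and 3799.7, 3889.8 and 3969.8 CPM in KO libraries, with overlapping genotypes. Without the Rfx factors and Foxj1, the 60 structural genes summed to 3050.3, 2835 and 2910.1 CPM for Het and 2689, 2781 and 2522 CPM for KO. In that sum every KO library was below every Het library (2932 ± 109 against 2664 ± 131 CPM; SD, n = 3), which held under both other scalings and is a description with no test.

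**Figure D2:**
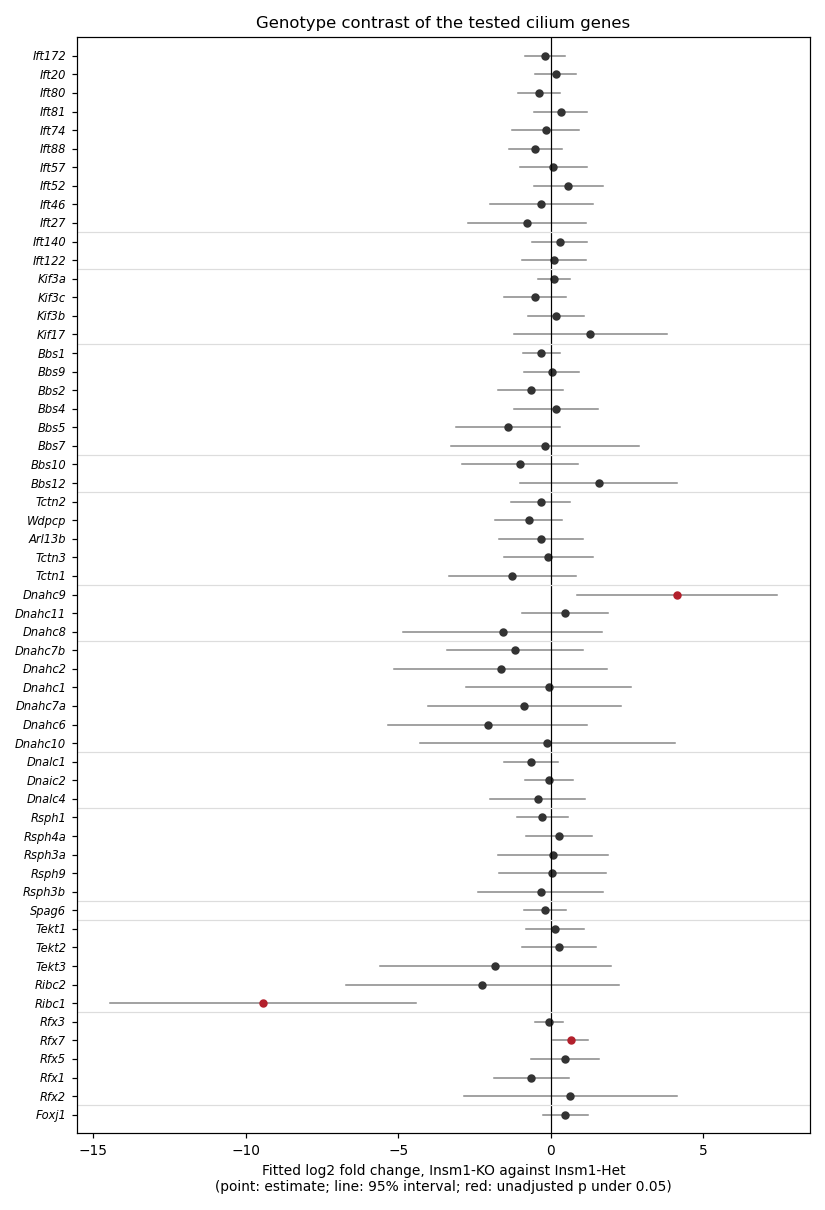
Fitted log2 fold change of each of the 58 tested cilium genes, KO against Het, with its 95% interval; lines divide the role groups and red points have an unadjusted p under 0.05. Only Dnahc9, Ribc1 and Rfx7 have intervals that leave out 0, and the estimate for Ribc1, with 0 counts in all KO libraries, depends on the fit and is no bound.

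Among the IFT-B genes, whose products form the trains that move cargo outward, the values of Het and KO libraries overlapped for 9 of 10. Ift20, which also sits at the Golgi and sorts membrane proteins toward the cilium, was at 133, 126 and 84.8 CPM among Het libraries, against 125, 128 and 134 CPM among KO libraries. Het replicate 3 was the lowest and the other 5 libraries lay close together. Ift74, a core subunit that binds tubulin, was at 75.6, 95.4 and 84.5 CPM among Het libraries, against 27.1, 140.3 and 60.0 CPM among KO libraries, where KO replicates 1 and 2 were the lowest and the highest of all. Ift172, the largest IFT-B protein, was at 201, 121 and 137 CPM among Het libraries, against 112, 134 and 159 CPM among KO libraries. Ift57 was at 63.2, 48.7 and 26.7 CPM among Het libraries, against 44.6, 35.5 and 66.0 CPM among KO libraries. The 95% interval of the log2 fold change was -0.50 to 0.84 for Ift20 and -0.84 to 0.48 for Ift172. Changes past those limits lay outside the intervals, and smaller ones of either sign were not excluded. Intervals were wider for Ift57 (-1.02 to 1.17) and Ift74 (-1.26 to 0.92).

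Ift88, the subunit mutated in the classical mouse model of defective cilia, was at 69.5, 81.6 and 67.3 CPM among Het libraries, against 49.3, 46.4 and 58.3 CPM among KO libraries. Every KO library was below every Het library. The log2 fold change was -0.50 (SE 0.40; adjusted p = 0.977 by edgeR), which did not pass. Of the 10 IFT-B genes 6 had fold changes below 0 and 4 above, from -0.77 for Ift27 to 0.58 for Ift52. Summed over the 10, the level was 857, 708 and 765 CPM for Het and 701, 821 and 678 CPM for KO, and the genotypes overlapped. Ift80, Ift81, Ift46 and Ift27 were also counted in every library. Ift27, a small GTPase that helps the BBSome leave the cilium, varied the most of the 10, between 3.75 and 54.4 CPM within the Het libraries alone.

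The IFT-A complex, which is needed for the way back and for entry of membrane proteins, was represented by 2 genes. Ift140 was at 36.4, 81.8 and 80.9 CPM among Het libraries, against 66.9, 89.0 and 88.1 CPM among KO libraries, with Het replicate 1 apart from the other 5. Ift122 was at 78.2, 85.5 and 28.5 CPM among Het libraries, against 96.7, 59.5 and 50.7 CPM among KO libraries, with Het replicate 3 the lowest. The intervals of the log2 fold change were -0.61 to 1.20 and -0.94 to 1.15. Neither gene passed, and the genotypes overlapped for both.

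Of the kinesin-2 motors, Kif3a and Kif3b form the motor that drives IFT trains, Kif3c can pair with Kif3a, and Kif17 is an accessory motor. Kif3a was at 260.4, 220.3 and 238 CPM among Het libraries, against 305, 259 and 207 CPM among KO libraries, a range of 1.47-fold over the 6 libraries, and its interval was -0.43 to 0.63. Kif3b was at 63.3, 59.5 and 63.7 CPM among Het libraries, against 44.1, 68.5 and 96.9 CPM among KO libraries. Kif3c was at 47.6, 61.4 and 147 CPM among Het libraries, against 74.3, 46.2 and 59.3 CPM among KO libraries, with Het replicate 3 far above the rest; 40.7% of its exon length overlaps genes on the opposite strand, so its counts are uncertain. Per length Kif3a (69.2 CPM per kb) was above Kif3b (11.7), its partner.

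Kif17 was low, at 3.91, 1.22 and 7.03 CPM among Het libraries, against 8.11, 9.91 and 11.8 CPM among KO libraries. All 3 KO libraries were higher than any Het library, by little over Het replicate 3. The log2 fold change was 1.29 (SE 1.17; adjusted p = 0.979 by edgeR) and did not pass. Kif17 was the 1 tested cilium gene that was higher in KO without overlap.

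Bbs1, the BBSome subunit that binds Arl6 at the membrane, was the most abundant of the 6 BBSome genes both in CPM and per length. It was at 393, 326 and 422 CPM among Het libraries, against 335, 401 and 184 CPM among KO libraries. KO replicate 3 was the lowest and the other 5 libraries overlapped. Bbs9, a scaffold of the complex, was at 75.9, 126 and 63.5 CPM among Het libraries, against 70.0, 64.6 and 137 CPM among KO libraries, and there KO replicate 3 was the highest. The intervals of the log2 fold change were -0.92 to 0.29 for Bbs1 and -0.87 to 0.93 for Bbs9.

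Bbs5 and Bbs2 separated the genotypes. Bbs5, which binds phosphoinositides, was at 42.0, 39.7 and 31.1 CPM among Het libraries, against 14.6, 26.3 and 2.11 CPM among KO libraries. Its log2 fold change was -1.39 (SE 0.79; unadjusted p = 0.103, adjusted p = 0.938, both by edgeR over all genes), and without KO replicate 3, the lowest library, it was -0.87, while without KO replicate 2 it was -2.16. Bbs2 was at 45.4, 58.0 and 51.3 CPM among Het libraries, against 27.8, 26.6 and 43.6 CPM among KO libraries, a log2 fold change of -0.66 (SE 0.50; adjusted p = 0.962 by edgeR). In both genes every KO library was below every Het library, and neither passed the test. Bbs4 had overlapping values (28.9 ± 14.5 against 32.5 ± 14.3 CPM; SD, n = 3). Bbs7 was the lowest of the complex at 0.677 CPM per kb. The summed level of the 6 subunits was 601, 563 and 609 CPM for Het and 476, 571 and 394 CPM for KO, where KO replicate 2 lay within the Het range.

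Bbs10 and Bbs12, chaperonin-like proteins that help assemble the BBSome, pointed in opposite directions. Bbs10 was at 30.3, 15.5 and 15.8 CPM among Het libraries, against 6.83, 20.5 and 3.34 CPM among KO libraries. Bbs12 was at 2.36, 2.34 and 9.09 CPM among Het libraries, against 11.7, 27.7 and 1.67 CPM among KO libraries. The log2 fold changes were -1.01 (SE 0.88) and 1.57 (SE 1.20). KO replicate 3 was the lowest library for both, and the genotypes overlapped.

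The transition zone group held the tectonics Tctn1, Tctn2 and Tctn3, the small GTPase Arl13b of the ciliary membrane, and Wdpcp, an effector of planar polarity. All 5 had fold changes below 0, none passed, and none separated the genotypes. Tctn2 was at 113, 47.5 and 56.3 CPM among Het libraries, against 60.0, 55.3 and 57.0 CPM among KO libraries, with Het replicate 1 apart from the rest. Wdpcp was at 62.0, 35.9 and 94.0 CPM among Het libraries, against 24.8, 47.9 and 44.2 CPM among KO libraries. Tctn3 was at 25.1, 24.9 and 23.1 CPM among Het libraries, against 25.7, 9.26 and 34.2 CPM among KO libraries, with KO replicates 2 and 3 on either side of all Het libraries. Arl13b was at 31.3, 23.1 and 27.5 CPM among Het libraries, against 24.4, 29.7 and 11.7 CPM among KO libraries, lowest in KO replicate 3. The last gene, Tctn1, was low in every library but Het replicate 2 (32.9 CPM), and 25.5% of its exon length overlaps genes on the opposite strand. Log2 fold changes ran from -1.26 for Tctn1 to -0.08 for Tctn3. Summed over the 5 genes, the level was 243, 164 and 206 CPM for Het and 144, 148 and 153 CPM for KO. In this sum every KO library was below every Het library, which is given as a description with no test. The 18 other transition zone genes, listed further below, summed to 1037, 1142 and 949 CPM for Het. For KO they summed to 875, 1028 and 1090 CPM, and the genotypes overlapped.

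**Figure D3:**
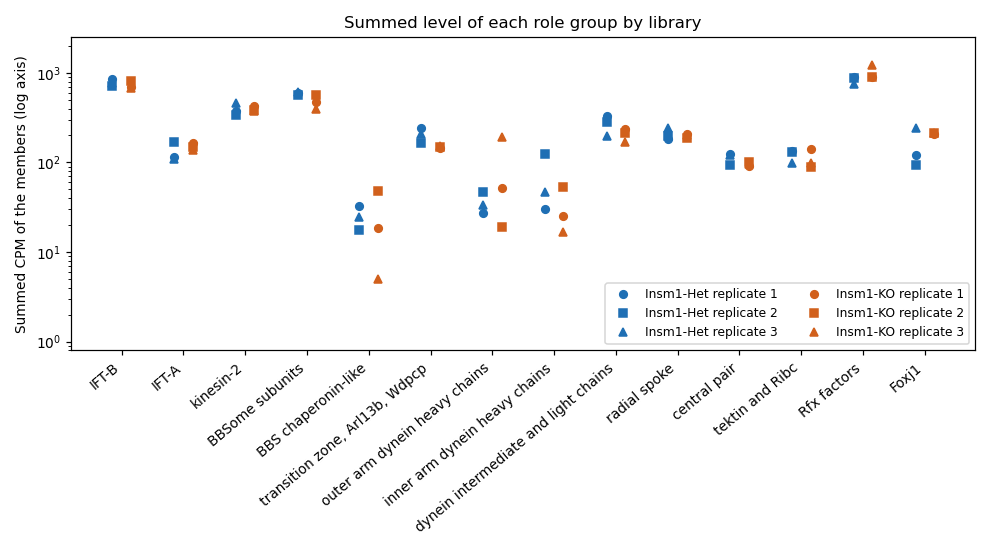
Summed CPM of all members of each role group (log axis), one point per library. The Rfx group is highest in KO replicate 3, the chaperonin-like Bbs pair is lowest in that library, and among the groups of more than 1 gene the transition zone group is the one in which no KO library reaches the Het range. The 18 other transition zone genes are not drawn, and their sum overlapped between genotypes.

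The axonemal genes were uneven. Several that belong to motile axonemes were abundant: Rsph1 and Rsph4a, proteins of the radial spoke head, Tekt1 and Tekt2, tektins that line the microtubule doublets, Dnaic2, an intermediate chain of the outer dynein arm, Dnalc1, a light chain of that arm, and Spag6, a central pair protein. The dynein heavy chains, without which an arm has no motor, were scarce. The mean level of Dnaic2 (20.9 CPM per kb) exceeded that of each of the 5 outer arm heavy chains, of which Dnahc11 (1.83) was highest. Dnahc9 averaged 1.80 CPM per kb, but this rests on KO replicate 3, and the other 5 libraries ran from 0.00669 to 0.276. Dnaic1, the partner of Dnaic2 in the arm, had 19, 0 and 0 counts across Het libraries, against 0, 0 and 10 counts across KO libraries.

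Rsph1 was at 97.7, 104 and 122 CPM among Het libraries, against 112, 108 and 45.7 CPM among KO libraries. KO replicate 3 was far below the other 5, which lay close together. Rsph4a was at 45.6, 55.1 and 79.2 CPM among Het libraries, against 67.8, 30.4 and 118 CPM among KO libraries, and here KO replicate 3 was the highest. Rsph9, also of the spoke head, was at 10.99, 13.4 and 17.9 CPM among Het libraries, against 6.73, 17.9 and 19.4 CPM among KO libraries. Rsph3a and Rsph3b, the spoke stalk genes, are near copies: 60.6% of the 100-base pieces of the Rsph3a transcript also occur in Rsph3b, so the split of reads between them is uncertain. Rsph3a was at 18, 14.2 and 11.1 CPM among Het libraries, against 15.7, 24.4 and 5.34 CPM among KO libraries. The summed level of the 6 spoke genes was 184, 196 and 243 CPM for Het and 209, 186 and 204 CPM for KO, with full overlap of the genotypes. Rsph6a, a relative of Rsph4a, was at 0.

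Tekt1 was at 89.5, 61.2 and 40.8 CPM among Het libraries, against 97.9, 62.3 and 50.6 CPM among KO libraries. Tekt2 was at 22.7, 36.6 and 25.2 CPM among Het libraries, against 33.6, 26.0 and 42.7 CPM among KO libraries. For both the genotypes overlapped, and the intervals of the log2 fold change were -0.82 to 1.10 and -0.94 to 1.49. Dnaic2 was at 99.8, 111 and 82.0 CPM among Het libraries, against 105, 60.9 and 115 CPM among KO libraries, with an interval of -0.83 to 0.73. Dnalc1 was at 192, 154 and 95.8 CPM among Het libraries, against 110.4, 129 and 43.4 CPM among KO libraries, a log2 fold change of -0.65 (SE 0.42; adjusted p = 0.938 by edgeR), with KO replicate 3 the lowest library. Dnalc4, also listed as a dynein light chain, was at 32.9, 17.9 and 17.8 CPM among Het libraries, against 19.0, 23.2 and 8.79 CPM among KO libraries. Spag6 was at 124, 92.5 and 110.2 CPM among Het libraries, against 90.9, 101 and 97.3 CPM among KO libraries (interval -0.86 to 0.51). Its symbol has stood for 2 genes, on chromosomes 2 and 16, so no length or place is given for it.

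The other 2 central pair genes did not pass the filter: Spag16 had 5, 10 and 142 counts across Het libraries, against 7, 4 and 0 counts across KO libraries, and Spag17 was counted in Het replicate 1 alone, with 5 counts. Ribc1 and Ribc2, proteins inside the doublet microtubules, and Tekt3 were each at 0 in at least 1 library and well counted in another. Ribc1 (chromosome X, 152004582 to 152016295 on the minus strand) had 189, 28 and 88 counts across Het libraries, against 0, 0 and 0 counts across KO libraries. Against a floor of 3 counts over the KO group it was at least 72.2-fold lower in KO than the Het mean of 8.32 CPM, while the Het libraries themselves ran from 2.62 to 15.4 CPM. It had the smallest unadjusted p of the cilium genes (unadjusted p = 0.00157, adjusted p = 0.896, both by edgeR over all genes) and did not pass. Under DESeq2 with Benjamini-Hochberg adjustment it passed (adjusted p = 0.0128); in the other 12 alternatives that tested it, it did not, and 0.109 was the smallest adjusted p among them. Ribc2 had 18, 1 and 317 counts across Het libraries, against 0, 0 and 50 counts across KO libraries. Tekt3 had 54, 322 and 13 counts across Het libraries, against 93, 1 and 0 counts across KO libraries. High values of Ribc2 and Tekt3 came from 1 Het library each, replicate 3 for Ribc2 and replicate 2 for Tekt3.

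**Figure D4:**
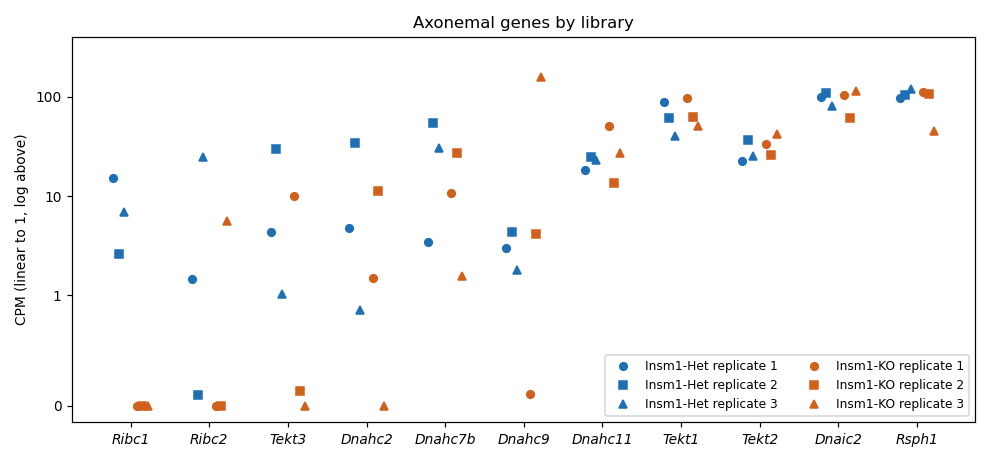
CPM of 11 axonemal genes by library (axis linear to 1 and logarithmic above). Ribc1 is at 0 in all 3 KO libraries and Dnahc9 is high in KO replicate 3 alone, while Tekt1, Tekt2 and Dnaic2 have overlapping genotypes.

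Dnahc9, an outer arm heavy chain (chromosome 11, 65831282 to 66168551 on the minus strand), had 37, 47 and 23 counts across Het libraries, against 1, 32 and 1429 counts across KO libraries. A single library, KO replicate 3, carried its difference: the log2 fold change was 4.14 (SE 1.52; unadjusted p = 0.0168, adjusted p = 0.920, both by edgeR over all genes) and turned to -0.52 without that library. The 9 multiciliated cell markers, 4 of them also cilium genes of this set, summed to 581 CPM in KO replicate 3, against 583 to 743 CPM in the other 5. Whether such cells contributed to the Dnahc9 counts was not tested. With no filter on low counts Dnahc9 passed (adjusted p = 0.00042 by edgeR with Benjamini-Hochberg adjustment), as did 67 of all 15648 genes (0.428%). Dnahc11, another outer arm heavy chain, was the most even of the 11 at 18.2, 25.1 and 23.0 CPM among Het libraries, against 51.5, 13.7 and 27.2 CPM among KO libraries. Dnahc8 was at 5.70, 15.9 and 1.34 CPM among Het libraries, against 0.320, 0.913 and 6.45 CPM among KO libraries. Dnahc5, the main outer arm heavy chain of airway cilia, had 5, 11 and 0 counts across Het libraries, against 0, 0 and 0 counts across KO libraries. Its Het mean was 4.16-fold above the floor of the KO group, but Het replicate 3 was also at 0. Dnahc17 had 1, 0 and 88 counts across Het libraries, against 0, 0 and 0 counts across KO libraries. Its Het mean was 20.3-fold above that floor, with nearly all its counts in Het replicate 3 and 0 in Het replicate 2. Neither gene was tested.

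All 6 inner arm heavy chains had fold changes below 0, and none passed. Their median log2 fold change was -1.01, with SEs from 1.04 to 1.94. Dnahc7b was at 3.42, 54.2 and 30.6 CPM among Het libraries, against 10.8, 27.0 and 1.56 CPM among KO libraries. Dnahc7a was at 9.28, 1.59 and 9.33 CPM among Het libraries, against 0.320, 1.30 and 9.46 CPM among KO libraries. Of the 100-base pieces of Dnahc7b 23.5% also occur in Dnahc7a or Dnah7c, so the split of reads among these copies is uncertain. Dnahc2 had 58, 368 and 11 counts across Het libraries, against 14, 87 and 0 counts across KO libraries. Dnahc1 had 34, 179 and 49 counts across Het libraries, against 92, 90 and 7 counts across KO libraries. Het replicate 2 was the highest library for Dnahc1, Dnahc2, Dnahc6, Dnahc7b and Dnahc10, and without it the fold changes of Dnahc1 and Dnahc2 were above 0 (1.16 and 0.61). The summed level of the 6 was 30.5, 122.7 and 47.3 CPM for Het and 25.5, 53.1 and 16.8 CPM for KO, so Het replicate 2 held the top value there too.

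Of the regulators, Rfx3 (chromosome 19, 27761721 to 28011166 on the minus strand) was the Rfx gene with the highest level per merged exon length (38.1 CPM per kb, against 26.7 for Rfx7, and above 90.1% of tested genes). With the longest transcript as length, Rfx7 (51.2) was above Rfx3 (45.9). Rfx3 was at 494, 417 and 379 CPM among Het libraries, against 424, 377 and 431 CPM among KO libraries, with overlapping genotypes and a range of 1.31-fold over all 6 libraries. The log2 fold change was -0.07 (SE 0.21), and its interval, -0.52 to 0.39, was the narrowest among the cilium genes. Rfx1, its partner in hair cells, was at 28.4, 62.2 and 54.6 CPM among Het libraries, against 16.3, 47.2 and 30.3 CPM among KO libraries. Rfx2, which acts in multiciliated and germ cells, was at 11.9, 0.749 and 2.69 CPM among Het libraries, against 18.3, 5.61 and 0 CPM among KO libraries, from 0 to 171 counts.

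Rfx7 (chromosome 9, 72532240 to 72622937 on the plus strand), a family member also known for roles in lymphocytes and in the p53 network, was at 312, 355 and 284 CPM among Het libraries, against 346, 436 and 718 CPM among KO libraries. KO replicate 3 was the highest, and KO replicate 1 lay below Het replicate 2. The log2 fold change was 0.66 (SE 0.27; unadjusted p = 0.0290, adjusted p = 0.920, both by edgeR over all genes), and it was 0.31 without KO replicate 3. Rfx5, the factor of MHC class II promoters, was at 60.0, 36.1 and 36.7 CPM among Het libraries, against 97.3, 30.3 and 55.2 CPM among KO libraries. Rfx4, a factor of the neural tube, had 33, 0 and 0 counts across Het libraries, against 0, 1 and 2 counts across KO libraries, and Rfx6 and Rfx8 had 0 counts in every library. Per merged exon length the order was Rfx3, Rfx7, Rfx5, Rfx1, Rfx2 and Rfx4. The values of Rfx3 and Rfx7 overlapped between libraries, as did those of Rfx5 and Rfx1.

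Foxj1 (chromosome 11, 116330704 to 116335399 on the minus strand) was at 120.3, 93.8 and 242 CPM among Het libraries, against 209, 212 and 213 CPM among KO libraries. The 3 KO libraries were nearly equal, and Het replicates 1 and 2 lay below them while replicate 3 lay above. The log2 fold change was 0.47 (SE 0.34; adjusted p = 0.957 by edgeR) and did not pass. Of the other multiciliation regulators taken as a list, Trp73, Foxn4 and Deup1 (listed as Ccdc67) had 0 counts in all 6 libraries, Ccno had 0 counts in 5 and 10 in the other, and Plk4, a kinase of centriole duplication in all cells, was the 1 tested gene of the list. Plk4 was at 96.99, 75.6 and 88.8 CPM among Het libraries, against 46.8, 54.3 and 40.3 CPM among KO libraries (log2 fold change -0.89, SE 0.39), every KO library below every Het library, and did not pass. Mcidas, Gmnc and Cdc20b were not analysed here. Of the 9 multiciliated cell markers, which include Foxj1, 7 were counted in all 6 libraries, while Dnahc5 was counted in 2 and Ccno in 1.

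**Figure D5:**
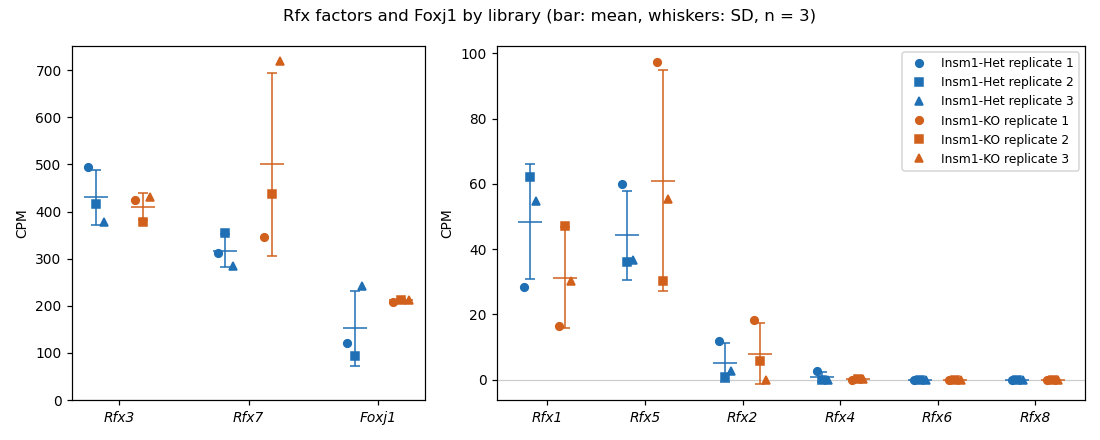
CPM of Rfx3, Rfx7 and Foxj1 (left) and of the other Rfx factors (right), one point per library with the mean and SD of each genotype. Rfx7 is highest in KO replicate 3, the Foxj1 values of the 3 KO libraries nearly coincide, and Rfx6 and Rfx8 are at 0.

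Genes of the same structures under other names, taken from 8 lists, also had 0 of 98 tested members past the adjusted threshold of edgeR, where the background is 0%, and 0 by DESeq2 and by limma-voom. At an unadjusted p under 0.05 there were 6 by edgeR, 3 higher and 3 lower, against 5.34% of all genes (3.19% higher, 2.15% lower), so the count is near the background. Of 17 further IFT, dynein-2 and kinesin-2 adaptor genes, all tested, fold changes were 11 above and 6 below 0. Wdr35, an IFT-A subunit, was at 111, 129 and 74.5 CPM among Het libraries, against 239, 129 and 205 CPM among KO libraries (log2 fold change 0.86, SE 0.33), and was the 1 gene of this list with an unadjusted p under 0.05. Kifap3, the adaptor of Kif3a and Kif3b, had the highest level per length (45.8 CPM per kb). The 6 further BBSome genes had 3 above and 3 below 0, with Arl6, the GTPase that recruits the BBSome, highest at 34.7 CPM per kb. Of 18 other transition zone genes (8 above and 10 below 0), Invs, the inversin of the ciliary base, had an unadjusted p under 0.05, at 51.5, 21.6 and 81.2 CPM among Het libraries, against 59.3, 111 and 246 CPM among KO libraries, with KO replicate 3 the highest (log2 fold change 1.43, SE 0.55). Tmem107 was the highest per length there (40.2 CPM per kb), and Pcm1, a protein of centriolar satellites, was highest of the 15 basal body genes (7 above and 8 below 0) at 144 CPM per kb.

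Among 20 tested genes for the assembly and docking of motile axonemes, fold changes were 8 above and 12 below 0, with a median of -0.18. Of these, 5 (25.0%) were lower in every KO than in every Het library, against 6.1% of all genes. An unadjusted p under 0.05 by edgeR was found for 2 (10%), both lower in KO, against 2.15% lower among all genes. The list was chosen with earlier results of these data known, so these shares are a description only. Drc1, the nexin link protein listed as Ccdc164, was at 85.3, 137 and 151 CPM among Het libraries, against 58.6, 84.8 and 72.3 CPM among KO libraries (log2 fold change -0.79, SE 0.36). Cfap44, an axonemal tether protein listed as Wdr52, was at 35.3, 14.1 and 21.3 CPM among Het libraries, against 5.87, 3.26 and 7.90 CPM among KO libraries (log2 fold change -2.05, SE 0.85). Hydin, of the central pair, was at 63.0, 112 and 58.2 CPM among Het libraries, against 29.5, 57.8 and 25.9 CPM among KO libraries, and the remaining 2 were Lrrc6 and Ttc25. These last 3 genes are named with their values known. The most abundant member per length was Heatr2, a dynein assembly factor, at 37.5 CPM per kb, which overlapped between genotypes. None of the 20 passed after adjustment over all genes. In either direction, the genotypes did not overlap for 11.2% of all genes. The count was 0 of 17 in the IFT list and 0 of 6 in the BBSome list. It was 1 of 18 transition zone genes (Ahi1, higher in KO) and 1 of 15 basal body genes (Cep97, higher). Smo was higher among 10 tested hedgehog genes, while Plk4 and 3 of 11 GTPase and cargo genes were lower. No list was tested as a set.

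Of 11 tested genes of ciliary GTPases and membrane cargo (4 above and 7 below 0), Pde6d, a carrier of lipidated proteins, was highest per length (48.1 CPM per kb). Pde6d, Arl3 and Unc119 were lower in KO without overlap (27.3% of the 11, against 6.1% of all genes). Arl3 and Unc119 are named with their values known, and this list too was chosen with earlier results of these data known. The share is thus a description only. In hedgehog signalling, which is read through the cilium, 10 of 13 genes were tested (7 above and 3 below 0), and Shh and Gli1, a ligand and the usual target gene of the pathway, had 0 counts in every library. Smo, the receptor that enters the cilium, was at 39.9, 28.7 and 35.6 CPM among Het libraries, against 70.8, 69.4 and 105 CPM among KO libraries. Its values did not overlap, and the log2 fold change was 1.23 (SE 0.43; unadjusted p = 0.0136, adjusted p = 0.920, both by edgeR over all genes), which did not pass. Gas1, a hedgehog coreceptor, was highest per length there (20.5 CPM per kb), at 58.6, 61.1 and 55.2 CPM among Het libraries, against 58.8, 47.3 and 83.0 CPM among KO libraries.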

How the data were processed

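The values deposited by the authors are whole-number counts of reads per gene symbol, without normalization, for each of the 6 libraries. The submitters' processing notes name Trimmomatic, STAR, HTSeq and build GRCm38. Tool versions, the annotation, the strand setting and the handling of reads with several map positions were not given in the sources used here. Per the labels' protocols, RNA was depleted of ribosomal RNA and the complementary DNA was amplified before sequencing, so counting error alone understates the error of low genes. The members and gene lists were chosen with earlier results of these data known.

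Genes were kept by filterByExpr (minimum count 10, minimum total 15), which left 11714 genes. Libraries were scaled by TMM, and genotypes were compared with edgeR 4.0.16 (R 4.3.3; glmQLFit and glmQLFTest, a model with genotype alone), and p-values were adjusted by Benjamini-Hochberg over all genes, with a threshold of 0.05. Intervals are 95% intervals from the SE, the fold change divided by the square root of F. A group at 0 was set to a floor of 3 counts, which covers counting error only. Positions and merged exon lengths came from the GENCODE annotation of GRCm38, and promoters from RefSeq. Exons of Ift57, Kif3c, Tctn1, Dnalc1, Rsph3a, Spag17, Tekt2, Rfx7 and Rfx5 overlap genes on the opposite strand by over 5% of their length, and their values are uncertain to that extent. The genes named were the members by role, by level, and by p or lack of overlap, and for each list the highest per length and those with an unadjusted p under 0.05. The fit was tested on simulated counts. Alternatives were DESeq2 1.42.0, limma-voom (limma 3.58.1), other scalings and filters, a replicate term, and leaving out each library.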

Additional observations from a re-analysis of the deposited data

How the results depend on the processing

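The count of cilium genes past the threshold was 0 by edgeR's quasi-likelihood test and also 0 with a replicate term, limma-voom, the other form of the fit, both other scalings, the filter of 5 CPM, and each library left out (0 to 0). It was 1 with DESeq2 (Ribc1) and 1 with no filter (Dnahc9). Over all genes the count was 0, with 26 for DESeq2, 67 with no filter, 1 with the other form of the fit and 1 with the replicate term. At an unadjusted p under 0.05 there were 3 cilium genes, 1 with the filter of 5 CPM, and 2 to 4 with a library left out. Genotypes did not overlap for 5 cilium genes, and for 9 to 12 with a library left out, where fewer libraries make overlap rarer. The median level of tested members was 8.34 CPM per kb, and 11.8 with the longest transcript as length. Same-numbered libraries did not deviate together (r = 0.0101, 0.0073 and 0.0144), so the numbers were not taken as pairs; with the replicate block 3 cilium genes had an unadjusted p under 0.05, Rfx7 and Ribc1 again and Bbs5 in place of Dnahc9, and the block took the log2 fold change of Dnahc9 from 4.14 to 0.38. Of 835 values for 60 named genes, 51 had the other sign, in 30 genes. With library-size scaling these were Ift57 (-0.0059), Bbs9 (-0.046) and Rsph9 (-0.022), with the replicate block Rsph3a (-0.15) and Rsph9 (-0.055), and with limma-voom Rsph3a (-0.19), Rsph9 (-0.093) and Rfx2 (-0.80). Log2 fold changes spanned 0 when each library was left out for Ift172 (-0.33 to 0.063), Ift74 (-0.95 to 0.23), Ift57 (-0.20 to 0.37), Ift140 (-0.00056 to 0.47), Ift122 (-0.24 to 0.37), Kif3a (-0.040 to 0.24), Kif3c (-0.80 to 0.15), Kif3b (-0.14 to 0.41), Bbs9 (-0.38 to 0.38), Tctn2 (-0.56 to 0.14). The same held for Tctn3 (-0.47 to 0.31), Dnahc9 (-0.52 to 4.72), Dnahc11 (-0.12 to 0.84), Dnahc2 (-4.12 to 0.61), Dnahc1 (-0.54 to 1.16), Dnaic2 (-0.22 to 0.19), Rsph1 (-0.49 to 0.042), Rsph4a (-0.28 to 0.64), Rsph3a (-0.45 to 0.48), Rsph9 (-0.19 to 0.40). It also held for Tekt1 (-0.18 to 0.46), Tekt3 (-7.32 to 0.31), Ribc2 (-9.54 to 1.25), Rfx3 (-0.14 to 0.045), Rfx5 (-0.052 to 0.79), Rfx2 (-0.87 to 2.19), Kifap3 (-0.33 to 0.048), Tmem107 (-0.19 to 1.15), Pcm1 (-0.14 to 0.13) and Gas1 (-0.13 to 0.30). The cause of these changes of sign was not tested. The summed levels of the 60 structural genes and of the transition zone group were lower in every KO than in every Het library under all 3 scalings. Low counts of amplified RNA in 3 libraries per genotype limit what could be detected for the dynein heavy chains, Ribc1, Ribc2, Tekt3, Rfx2 and Rfx4.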
